A study of Homo sapiens with 13 samples.

Results

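The 6 genes that encode the core of maintenance DNA methylation were examined for chromatin occupancy by GFP-tagged DNMT1: DNMT1, UHRF1, UHRF2, PCNA, USP7 and HELLS. They are 6 of 20037 protein-coding genes in the RefSeq table, and were taken by name, each as its RefSeq span on GRCh38 with 1 kb added at either end (the gene window). DNMT1 is the methyltransferase that copies CpG methylation onto the new strand after replication. UHRF1 reads hemimethylated CpG and modified histone H3 and ubiquitylates H3, which recruits DNMT1 through its RFTS domain, and UHRF2 is its paralogue. PCNA is the sliding clamp that holds DNMT1 at the replication fork, USP7 is a deubiquitinase that binds and stabilises both DNMT1 and UHRF1, and HELLS is a chromatin remodeller that DNA methylation in heterochromatin requires.

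Chromatin from MV4-11 cells, an established acute myeloid leukaemia line with a KMT2A fusion, was immunoprecipitated with an antibody to GFP and sequenced. In all 10 GFP-DNMT1 libraries the cells overexpressed ectopic GFP-DNMT1 and carried the guide gDNMT1 against the endogenous gene. Wild-type GFP-DNMT1 was used in the line labelled WT, in the line with the non-targeting guide gNTC (NTC) and in the line with a guide that knocks out UHRF1 (UHRF1KO), and a mutant without the RFTS domain was used in RFTSdel. Every line was grown for 7 days in DMSO or in 100 nM GSK3685032, a DNMT1 inhibitor (DNMT1i). There were 2 RFTSdel libraries for each treatment, 1 for each of the other lines, and 1 from untreated parental cells without the construct. No label says that the RFTSdel replicates were separate cultures or how many clones a line holds, so their spread may be technical, and values of the other lines have no replicate check. Because the construct carries DNMT1 coding sequence, reads from it and from exons of the DNMT1 gene cannot be told apart in the peak lists.

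The lists held 426 peaks in parental cells, 12660 to 32954 in the DMSO libraries and 4323 to 11495 after DNMT1i, and they give no read counts, so depth is unknown. WT DNMT1i stood apart: its list overlapped 16.0% of the parental peaks, and each of the other 9 lists overlapped 70.4% to 99.3%. The fold and −log10 q of a peak are the authors' values and describe that peak within its own list. Parental cells had a peak in 0 of the 6 windows, where 2.71% of all protein-coding genes had one.

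Across the 11 lists, 74 peaks overlapped the 6 windows, 56 under DMSO and 18 after DNMT1i. Of these, 44 came within 1 kb of the first RefSeq start, 6 within 1 kb of a later listed start and 24 lay away from every listed start. In NTC DMSO 8 of 14 member peaks lay away from the starts (51.9% of all peaks in coding gene windows), and in UHRF1KO DMSO 11 of 19 (61.0%). For the start regions whose behaviour under DNMT1i differed most, the 250 bases upstream of the first start are shown 5′ to 3′ on the gene's strand (RefSeq, GRCh38.p14), with every CpG in capitals because CpG is the substrate of the enzyme profiled. UHRF2 and PCNA kept a peak in 4 DNMT1i libraries, UHRF1 in 2 and HELLS in none. The windows are chr9:6412949-6413198 (plus strand) for UHRF2, chr20:5126623-5126872 (minus) for PCNA, chr19:4909251-4909500 (plus) for UHRF1 and chr10:94545538-94545787 (plus) for HELLS.
UHRF2: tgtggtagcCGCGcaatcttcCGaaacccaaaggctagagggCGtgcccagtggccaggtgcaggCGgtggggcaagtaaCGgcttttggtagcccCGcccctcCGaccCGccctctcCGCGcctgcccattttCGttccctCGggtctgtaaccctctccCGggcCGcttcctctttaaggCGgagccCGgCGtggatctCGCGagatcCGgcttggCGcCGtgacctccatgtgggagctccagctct
PCNA: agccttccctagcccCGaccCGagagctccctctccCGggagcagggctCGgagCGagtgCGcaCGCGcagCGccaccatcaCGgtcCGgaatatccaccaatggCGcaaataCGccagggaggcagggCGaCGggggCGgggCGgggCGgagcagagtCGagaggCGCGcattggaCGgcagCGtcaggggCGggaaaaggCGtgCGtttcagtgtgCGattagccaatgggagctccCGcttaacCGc
UHRF1: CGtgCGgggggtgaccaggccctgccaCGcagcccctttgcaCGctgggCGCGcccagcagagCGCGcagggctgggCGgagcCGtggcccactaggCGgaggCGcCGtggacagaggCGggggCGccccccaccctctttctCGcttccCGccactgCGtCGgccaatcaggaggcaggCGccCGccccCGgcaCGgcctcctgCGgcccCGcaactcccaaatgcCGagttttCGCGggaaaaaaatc
HELLS: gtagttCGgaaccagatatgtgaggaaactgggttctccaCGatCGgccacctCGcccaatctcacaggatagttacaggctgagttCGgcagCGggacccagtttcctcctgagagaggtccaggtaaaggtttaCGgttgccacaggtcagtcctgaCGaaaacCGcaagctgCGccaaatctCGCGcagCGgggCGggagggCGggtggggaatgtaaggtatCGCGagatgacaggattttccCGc
These stretches held 23 CpGs in UHRF2, 29 in PCNA, 28 in UHRF1 and 18 in HELLS, and the first starts of DNMT1 and USP7 held 21 and 43. The median over 22197 listed starts of protein-coding genes was 16, so all 6 lay above it, with HELLS closest and USP7 above 98.8% of all starts. CpG number did not order the genes by how often they were marked after DNMT1i.

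The same stretches were searched on both strands for an E2F site (TTTCCCGC, TTTCGCGC, TTTGCCGC or TTTGGCGC), for CCAAT and for GGGCGG. E2F factors drive genes of S phase, and CCAAT and GGGCGG are common promoter boxes. An E2F match is present upstream of 3.48% of all starts and occurred in UHRF1 (14 bases before the start), in PCNA (59 bases before, overlapping a GGGCGG match) and, as 2 matches, in HELLS. UHRF2, DNMT1 and USP7 had no match to these letters. CCAAT (32.7% of all starts) occurred 3 times in PCNA and once each in UHRF1 and HELLS, and GGGCGG (53.7%) in all except DNMT1. The longest perfect palindromes upstream of the 6 first starts were 16 bases each, in UHRF1 (−207 to −192 bp) and UHRF2 (−55 to −40 bp). Their inner 10 bases, GGGCGCGCCC in UHRF1 and TCTCGCGAGA in UHRF2, are present upstream of 0.356% and 0.500% of starts. These motifs were chosen after the sequences were seen, and a match is a string of letters, not a bound site.

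The DNMT1 gene (chr19:10133346-10194953, minus strand) had a start peak in all 5 DMSO libraries, and each of these peaks covered the start. Its fold was 3.38 in WT, 4.71 in NTC and 5.11 in UHRF1KO, and the RFTSdel replicates had 5.02 and 6.44. It was among the strongest peaks of some lists and midway in others: rank 1525 of 23990 by −log10 q in NTC, 1092 of 32954 in UHRF1KO and 754 of 14443 in RFTSdel replicate 2, against 7819 of 17119 in WT. After DNMT1i the start peak was called in UHRF1KO (fold 4.20, −log10 q 3.02) and in RFTSdel (folds 4.03 and 4.55, −log10 q 3.87 and 5.97), and in neither NTC nor WT. The 250 bp shared by all 8 peaks ran from −7 to 242 bp relative to the start, almost wholly on its downstream side.

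Inside DNMT1, further peaks were called under DMSO in NTC (4 peaks, folds 3.12 to 3.59) and UHRF1KO (3 peaks, folds 3.74 to 4.11). None was called in WT or RFTSdel, or in any library after DNMT1i. One site, at chr19:10154250-10155050 (39903 to 40703 bp past the start), was called in both NTC and UHRF1KO. Covered length, the bp of the gene window under peaks, was 644 in WT, 2530 in NTC and 4659 in UHRF1KO under DMSO, and 981 and 755 in the RFTSdel replicates. After DNMT1i it was 0 in WT and NTC, 534 in UHRF1KO, and 312 and 857 in the RFTSdel replicates. It was lower after DNMT1i in 4 of 5 pairs and higher in RFTSdel replicate 2, with a mean difference of −1573 ± 1726 bp (SD over the 5 pairs; p = 0.125 by an exact permutation test that flips the sign of each pair, both sides, and 0.288 after Benjamini-Hochberg adjustment over all 20037 genes). The difference was −404 ± 438 bp within batch 1 (WT and RFTSdel, n = 3) and −3327.5 ± 1128 bp within batch 2 (NTC and UHRF1KO, n = 2), and −935 bp without the UHRF1KO pair.

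UHRF1 (chr19:4903080-4962154, plus strand) carried a broad peak over its listed starts, the first of them at 4909501 and so inside the span, in all 5 DMSO libraries, UHRF1KO included. The peak was 1186 bp wide in WT (fold 3.77), 3322 in NTC (3.98) and 3110 in UHRF1KO (4.21), and the RFTSdel replicates had 1952 (5.06) and 2438 bp (5.62). It spanned all 3 listed starts in 4 libraries and the first 2 in WT. A peak at the targeted gene says nothing of whether the knockout worked, since the lists hold no expression or edited sequence. The span of ARRDC5 (chr19:4890437-4916820), an arrestin-domain gene, overlaps the UHRF1 start region, so the peak cannot be assigned to 1 gene by position.

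After DNMT1i the UHRF1 start peak was called in the RFTSdel replicates, at 862 and 1016 bp wide and with lower folds (3.62 and 3.81) than under DMSO. These peaks began at −66 and −98 bp from the first start, so the UHRF1 palindrome (−207 to −192 bp) lay outside both. NTC, UHRF1KO and WT had no peak anywhere in the gene. Both RFTSdel DNMT1i lists also held a peak inside UHRF1 that no other library had, at chr19:4941710-4942129 in replicate 1 and chr19:4941389-4942169 in replicate 2, 31888 to 32668 bp past the first start at its widest. Its fold was 5.62 and 6.72 and its −log10 q 6.21 and 10.0, above the UHRF1 start peak of the same lists. It ranked 297 of 7861 and 139 of 11495 peaks. Peaks shared by both RFTSdel DNMT1i lists and absent from the other 9 were rare, 69 in replicate 1 (0.878% of its list) and 71 in replicate 2 (0.618%), and the UHRF1 site was the fourth strongest of them in each (rank 4). Whether it is exonic or intronic is not given here, because the table used holds spans and starts without exons.

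Covered length at UHRF1 under DMSO was 1186 bp in WT, 4909 in NTC and 6143 in UHRF1KO, and the RFTSdel replicates had 1952 and 2438. With DNMT1i it was 0 in the 3 lines with wild-type GFP-DNMT1, and 1282 and 1797 bp in RFTSdel. All 5 pairs were lower, by a mean of −2709.8 ± 2617 bp (SD, n = 5; exact sign-flip permutation p = 0.0625, the smallest that 5 pairs allow, adjusted 0.211). Within batch 1 the mean was −832 ± 307 bp (n = 3) and within batch 2 it was −5526 ± 873 bp (n = 2). The large values of batch 2 include DMSO peaks inside the gene: chr19:4932720-4935099 and chr19:4954290-4955110 were each called in NTC and UHRF1KO and in no other library.

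UHRF2 (chr9:6413199-6507054, plus strand) is the longest of the 6 genes at 93856 bp, and every peak in its window lay at the start. The peak was called in all 5 DMSO libraries, with folds of 3.69 in WT, 3.27 in NTC, 4.01 in UHRF1KO, and 4.28 and 5.12 in the RFTSdel replicates. After DNMT1i it was called in NTC (3.56), UHRF1KO (5.04) and both RFTSdel replicates (3.70 and 3.63), and not in WT. The DNMT1i peaks began at almost the same base, between −258 and −238 bp from the start, a spread of 20 bp in 4 libraries. Under DMSO the upstream edge varied by 1029 bp and reached −1733 bp in UHRF1KO. Peak width under DMSO and DNMT1i was 1192 and 687 bp in NTC, 2533 and 235 in UHRF1KO, 1803 and 1006 in RFTSdel replicate 1, and 2189 and 267 in replicate 2. The 215 bp common to all 9 peaks lay wholly upstream, from −238 to −24 bp, inside the UHRF2 sequence printed above, and hold its palindrome.

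The covered length of UHRF2 was 1192, 1800, 1059, 1803 and 2022 bp under DMSO in NTC, UHRF1KO, WT and the RFTSdel replicates, and 687, 235, 0, 1006 and 267 bp after DNMT1i. The lowest DMSO value (1059 bp in WT) lay just above the highest DNMT1i value (1006 bp in RFTSdel replicate 1). How many of all genes show such a gap was not counted. The mean difference was −1136 ± 521 bp (SD, n = 5, lower in 5 of 5; exact sign-flip permutation p = 0.0625, adjusted 0.211), −1204 ± 495 within batch 1 and −1035 ± 750 within batch 2. The rank of the peak varied widely between lists. In NTC the UHRF2 peak ranked 18858 of 23990 under DMSO and 5452 of 6194 after DNMT1i, and in UHRF1KO DNMT1i it ranked 780 of 5042. With every list cut to its strongest 4323 peaks, UHRF2 kept a peak in UHRF1KO DNMT1i alone, and the mean difference turned to 47.0 bp. Over the span without the added 1 kb the mean difference was −391.4 bp, and there the groups overlapped. The peak reached 58 bp past the start in WT DMSO and 767 bp in RFTSdel DNMT1i replicate 1.

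PCNA (chr20:5114953-5126622, minus strand) had a peak at its start region in all 5 DMSO libraries and in every DNMT1i library except WT. Its fold was 3.80, 5.59, 4.45, 6.26 and 6.91 under DMSO in NTC, UHRF1KO, WT and the RFTSdel replicates. The inhibitor libraries had 3.73 in NTC, 4.99 in UHRF1KO, and 5.61 and 5.99 in RFTSdel. In RFTSdel this peak stood high in the DNMT1i lists, at rank 685 of 7861 and 754 of 11495, and in NTC it stood low, at rank 5119 of 6194. The 98 bp common to all 9 peaks lay between −418 and −321 bp from the PCNA start, beyond the 250 bases printed. That stretch holds the first base of the CDS2 span, 386 bp from the PCNA start, and all 9 peaks overlapped CDS2, a phospholipid synthesis gene, so this site belongs to both genes by position. Only 4 of the 9 peaks reached the PCNA start itself.

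A second region of PCNA, around its other listed start 6664 bp downstream and over the antisense gene PCNA-AS1, was called in UHRF1KO, WT and both RFTSdel DMSO libraries and in RFTSdel DNMT1i replicate 2. Its folds ran from 3.05 to 4.26, below the first start in each of those lists. RFTSdel DMSO replicate 2 had a further peak past the 3′ end of the gene (chr20:5112870-5114282, fold 4.66). Covered length was 628, 2264, 1345, 1631 and 2550 bp under DMSO, and 266, 233, 0, 752 and 2102 bp after DNMT1i. The groups overlapped, but each pair was lower, by a mean of −1013 ± 691 bp (SD, n = 5; exact sign-flip permutation p = 0.0625, adjusted 0.211). It was −891 ± 449 bp within batch 1 and −1196.5 ± 1180 bp within batch 2. Over the span alone, without the added 1 kb that holds the shared site, it was −569.8 bp (p = 0.125 by the same exact permutation test), and with 5 kb added it was −1670.0 bp.

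USP7 (chr16:8892097-8963906, minus strand) had a start peak in all 5 DMSO libraries, and after DNMT1i in the RFTSdel replicates alone. The fold under DMSO was 4.06 in WT, 5.82 in NTC and 3.73 in UHRF1KO, and the RFTSdel replicates had 8.37 and 5.93. The value of 8.37 was the highest of any peak in the 6 windows. Under DNMT1i those replicates had 5.34 and 3.80. UHRF1KO and NTC differed in shape under DMSO: the start peak was 1436 bp wide at rank 17480 of 32954 in UHRF1KO, and 456 bp wide at rank 987 of 23990 in NTC. The long non-coding gene USP7-AS1 overlaps this region.

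Inside USP7 the DMSO lists held 2 peaks in NTC, 6 in UHRF1KO, 2 in WT and none in RFTSdel, all with folds under that of USP7's start peak except 1 in UHRF1KO (4.27, 5063 to 5347 bp past the start). The sites chr16:8928456-8929233 (UHRF1KO and WT) and chr16:8958399-8958843 (NTC and UHRF1KO) were each called in 2 libraries. A 213 bp peak in UHRF1KO DMSO covered the third listed start, whose 250 upstream bases hold 0 CpGs. Covered length was 1554, 4058, 1401, 652 and 729 bp under DMSO in NTC, UHRF1KO, WT and RFTSdel, and 0, 0, 0, 285 and 1060 bp after DNMT1i. The mean difference was −1409.8 ± 1669.7 bp (SD, n = 5, lower in 4 of 5 and higher in RFTSdel replicate 2; exact sign-flip permutation p = 0.125, adjusted 0.288), −479 ± 871 within batch 1 and −2806 ± 1771 within batch 2. Without the UHRF1KO pair it was −748 bp.

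HELLS (chr10:94545788-94613905, plus strand) was the least often marked. Its start peak was called under DMSO in NTC (fold 3.29), UHRF1KO (3.82) and RFTSdel (3.52 and 3.97), and not in WT. No DNMT1i library had a peak in the window. The 4 peaks were of similar width, 838 to 1199 bp, and none had a fold of 4 or more or a −log10 q of 4 or more. They lay in the weaker part of 3 lists, at rank 19352 of 23990 in NTC, 11083 of 12660 and 10211 of 14443 in RFTSdel, and at 13879 of 32954 in UHRF1KO. Covered length was 1116, 838, 0, 1028 and 1199 bp under DMSO and 0 in each DNMT1i library, a mean difference of −836 ± 486 bp (SD, n = 5, lower in 4 of 5, equal in WT; exact sign-flip permutation p = 0.125, adjusted 0.288). Within batch 1 it was −742 ± 649 bp and within batch 2 it was −977 ± 197 bp. Over the span alone the mean was −274.4 bp.

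**Figure D1:**
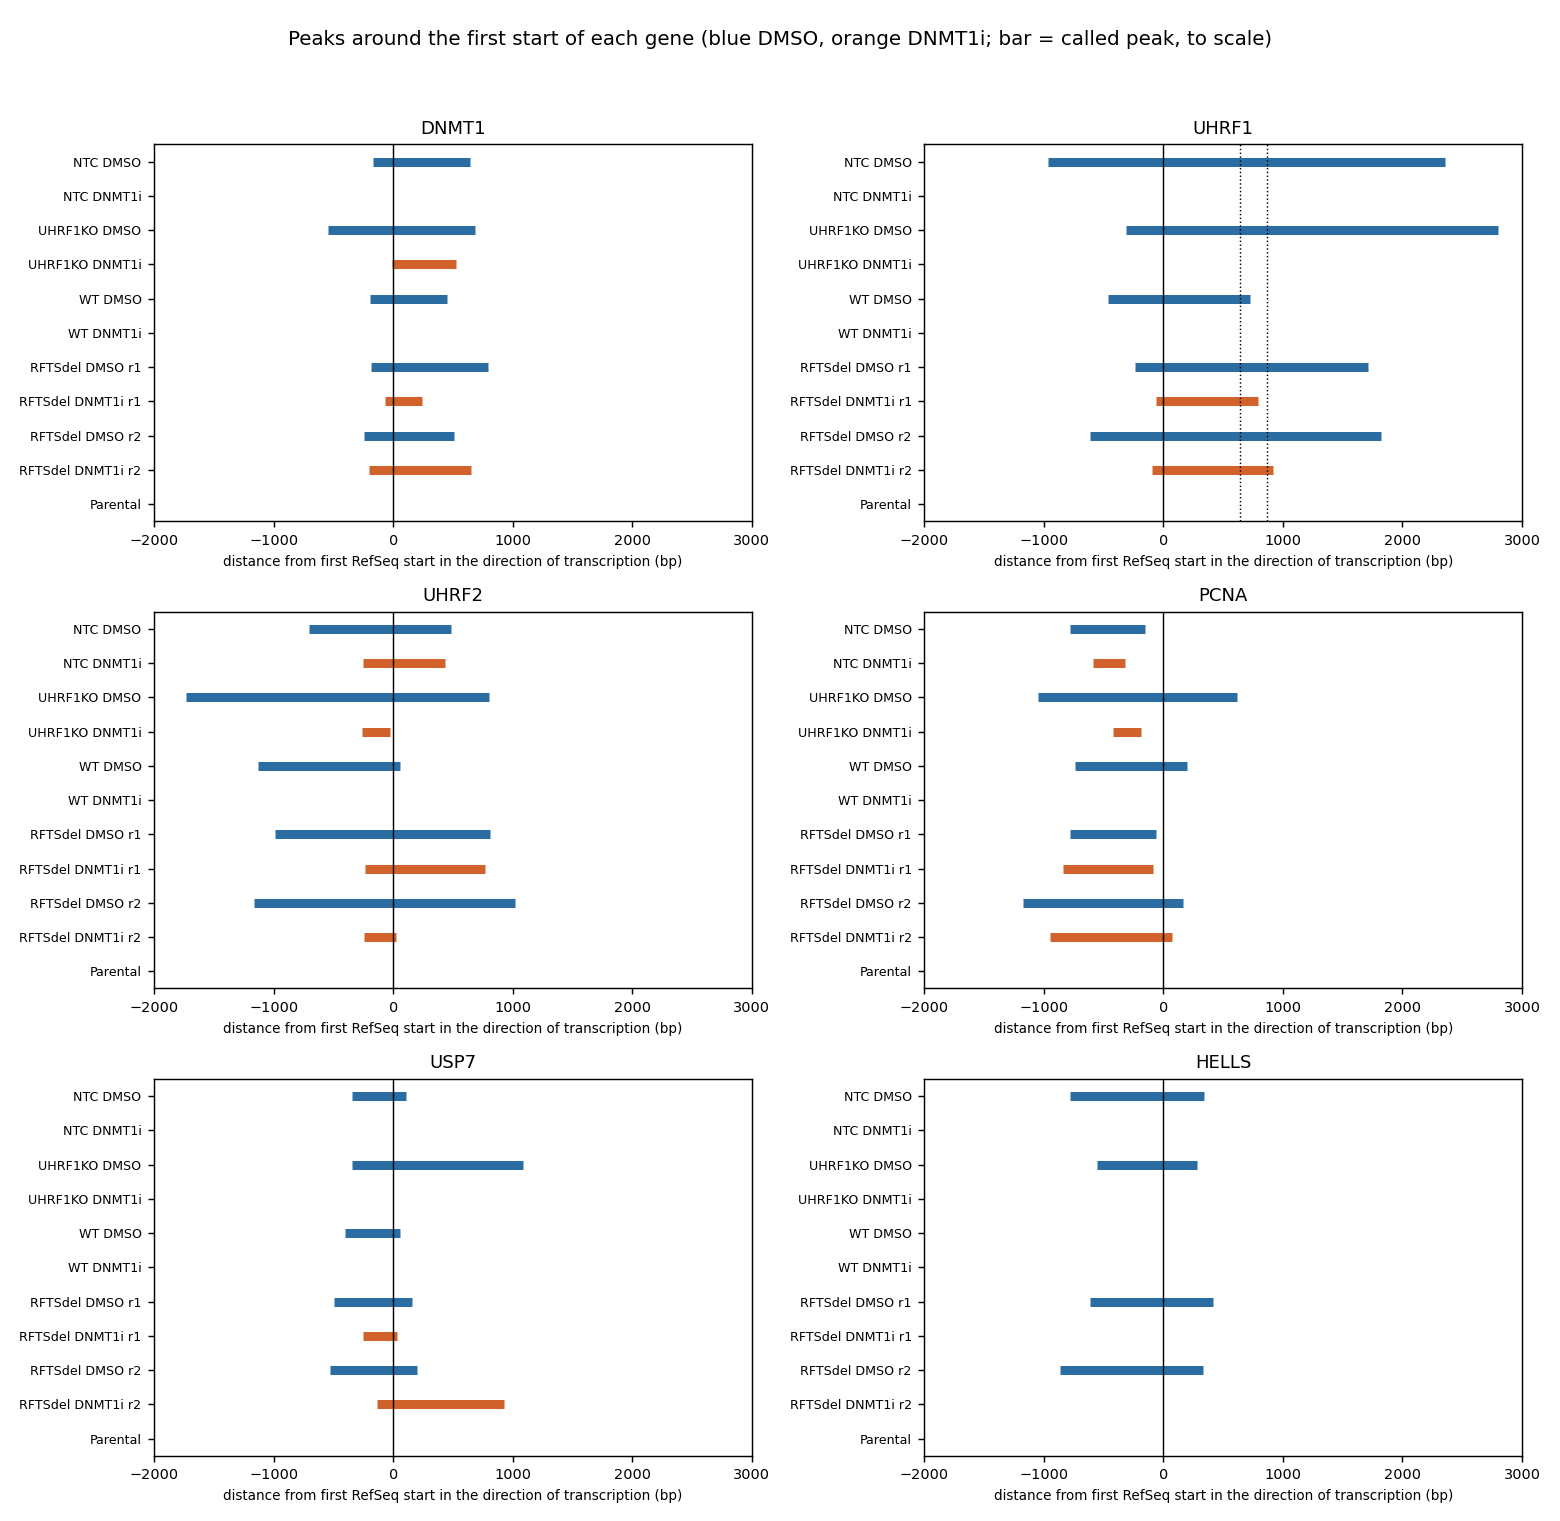
Called peaks around the first RefSeq start of each gene, with distance in bp on the x axis and the 11 libraries on the y axis; bars are drawn to scale, blue under DMSO, orange after DNMT1i, and dotted lines are later starts. The UHRF2 DNMT1i bars begin within 20 bp of each other, the 98 bp common to the PCNA bars lie upstream of its start, and HELLS has no orange bar.

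**Figure D2:**
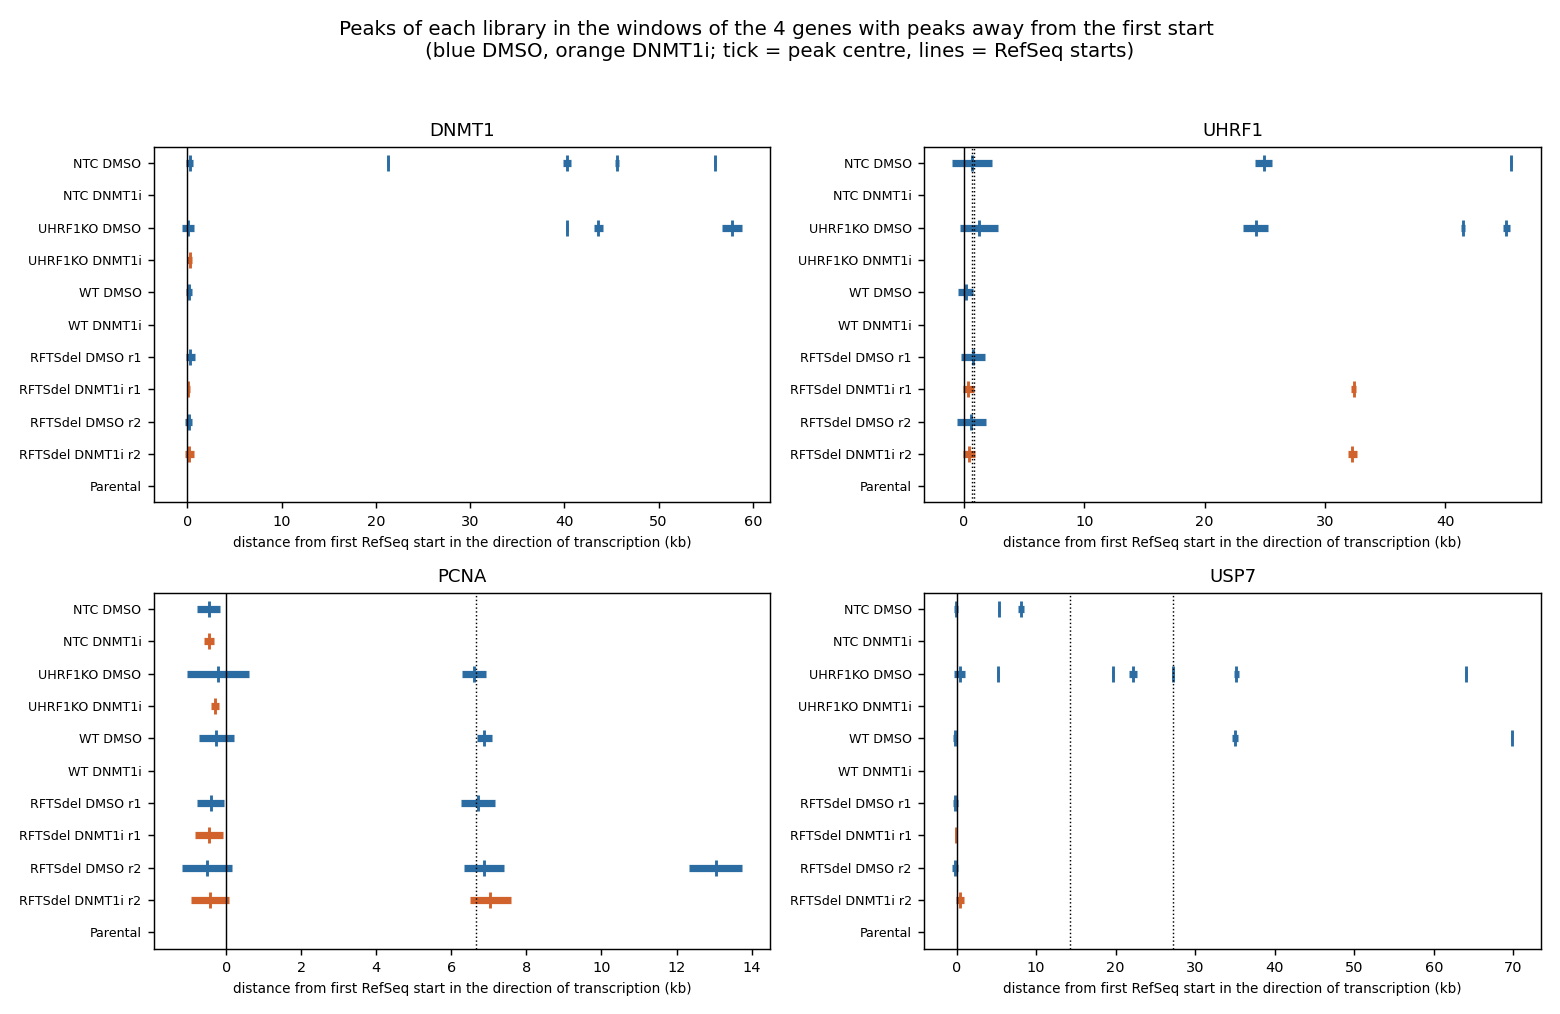
Peaks along the windows of the 4 genes that had any peak away from the first start, with distance from that start in kb and 1 row per library; ticks mark peak centres and vertical lines mark listed starts. Blue interior peaks crowd the NTC and UHRF1KO rows, and the orange pair inside UHRF1 stands in the RFTSdel DNMT1i rows alone.

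Counted together, the 6 genes were marked in fewer windows after DNMT1i in every line, and so were protein-coding genes as a whole. Under DMSO a peak lay in the window of 6 of 6 members in NTC (all protein-coding genes, 62.5%), 6 in UHRF1KO (67.0%), 5 in WT (54.8%) and 6 in each RFTSdel replicate (53.1% and 56.2%). After DNMT1i the count was 0 in WT (15.2%), 2 in NTC (22.6%) and 3 in UHRF1KO (22.9%), and 5 in each RFTSdel replicate (35.9% and 49.1%). Of the members with a DMSO peak, 4 of 6 had none after DNMT1i in NTC, 3 of 6 in UHRF1KO, 5 of 5 in WT and 1 of 6 in each RFTSdel pair. Among all genes with a DMSO peak those shares were 73.5%, 69.8%, 82.8%, 41.6% and 24.9%. The members' share thus lay above the background in WT and below it in each other pair, on 5 or 6 members a pair and without a test.

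All members except HELLS, 5 of 6, had a peak in all 5 DMSO libraries (41.7% of all genes), and 0 had one in all 5 DNMT1i libraries (3.82%). UHRF2 and PCNA had one in the 4 DNMT1i libraries other than WT (7.53%), and HELLS was the 1 member with none after DNMT1i (39.1%). Over the span without the added 1 kb, PCNA was called in 4 DMSO libraries and, after DNMT1i, in RFTSdel replicate 2 alone. UHRF2 was then called in 3 DNMT1i libraries, and 4 members were called in every DMSO library. At −log10 q of at least 4, or with lists cut to 4323 peaks, 0 members were called in every DMSO library, and at fold of at least 4 only USP7 was. The share of all genes called in every DMSO library was not counted at these settings, so these counts have no background. DNMT1, UHRF1 and USP7 were called after DNMT1i in both RFTSdel libraries and in neither NTC nor WT, 3 of 6 members against 21.1% of all genes. No member showed the opposite (7.49%). These DNMT1i shares are over all genes, including those without a DMSO peak. DNMT1, UHRF1 and USP7 each had a peak in all 5 DMSO libraries, and the share among such genes was not counted. RFTSdel had 2 libraries and longer DNMT1i lists (7861 and 11495 peaks) than NTC (6194) and WT (4323). With every list cut to its strongest 4323 peaks, the DNMT1i libraries marked 0 of 6 members in WT (15.2% of all coding genes), 0 in NTC (17.2%) and 3 in UHRF1KO (20.3%), and the RFTSdel replicates marked 4 (21.0%) and 3 (21.4%). The DMSO lists cut in the same way marked 1 member in WT (19.9%), 2 in NTC (20.3%) and 2 in UHRF1KO (20.5%), and 4 in each RFTSdel replicate (22.6% and 22.5%).

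**Figure D3:**
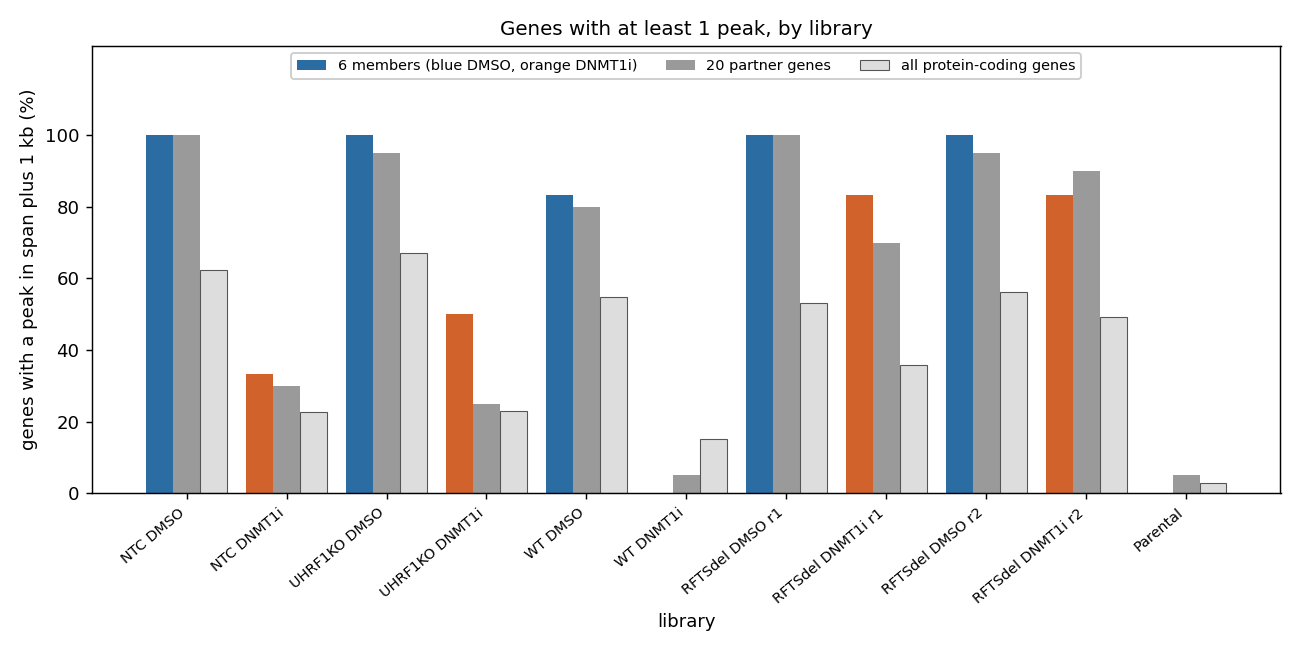
Percent of genes with at least 1 peak in the gene window, by library, for the 6 members, 20 partner genes and all 20037 protein-coding genes. Members fall from 6 of 6 to 2 in NTC and from 5 to 0 in WT, and stay at 5 in both RFTSdel DNMT1i libraries, and the pale bars move in the same direction in each line.

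**Figure D4:**
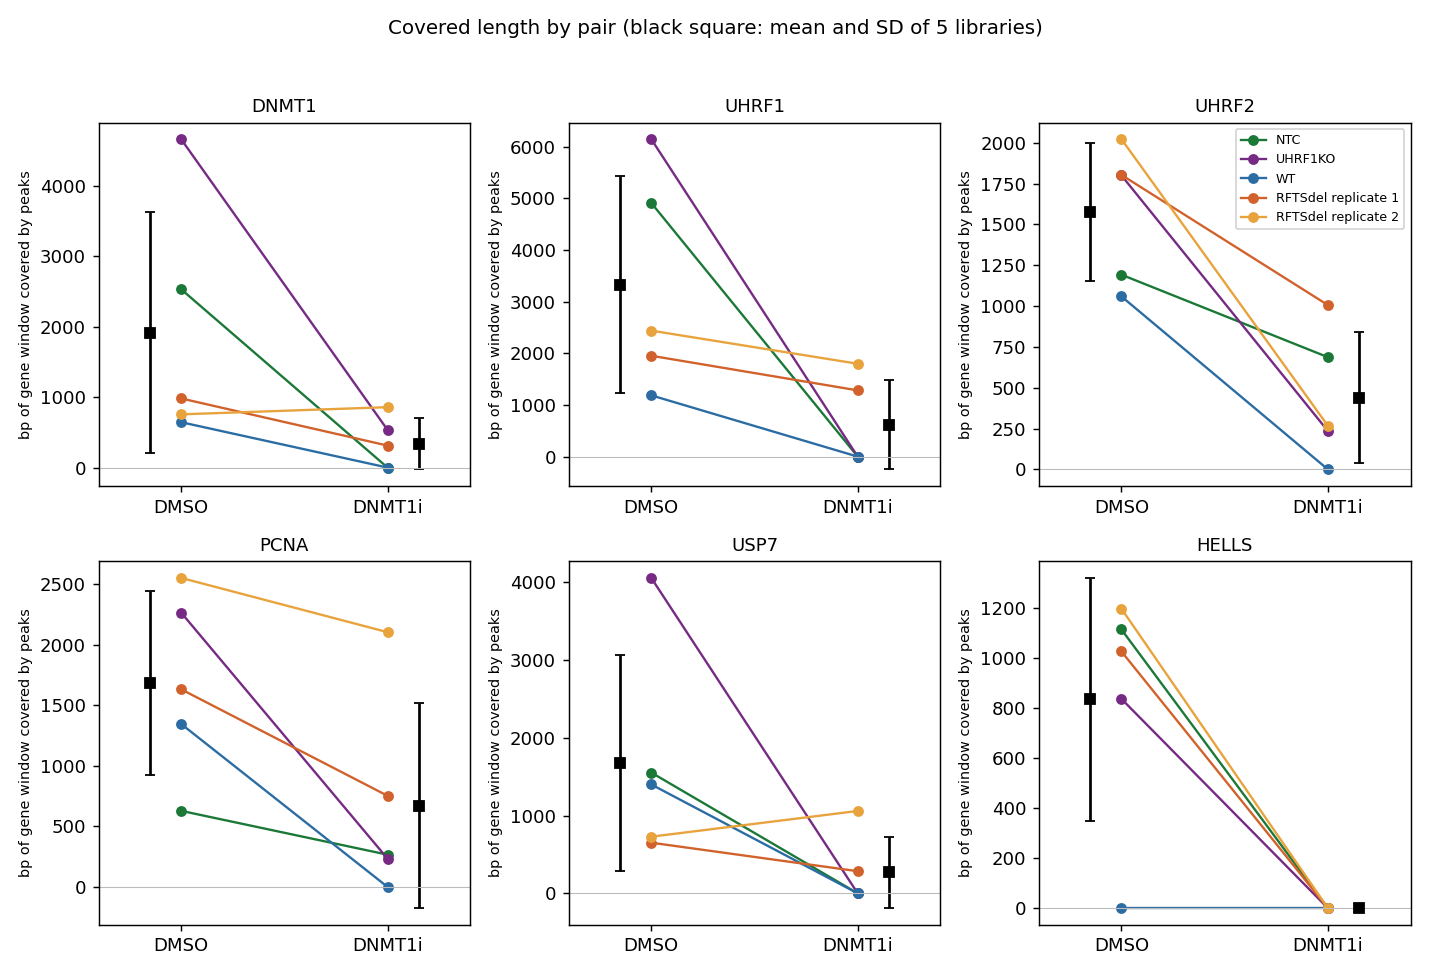
Bp of each gene window covered by peaks under DMSO and DNMT1i, with 1 line per pair; black squares and bars are the mean and SD of 5 libraries. Lines fall in 5 of 5 pairs for UHRF1, UHRF2 and PCNA, and the RFTSdel replicate 2 line rises for DNMT1 and USP7.

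Of 15 peaks at a first start under DNMT1i, 12 were narrower (80.0%) and 3 wider than the DMSO peak of the same line. The peak at the second PCNA start in RFTSdel replicate 2 was also wider (1084 against 1059 bp). Of all DNMT1i peaks that overlapped a DMSO peak, at starts or elsewhere, 71.9% were narrower. At the first starts the narrower peaks were 2 of 2 in NTC (57.8% of all such peaks), 3 of 3 in UHRF1KO (83.1%), and 4 and 3 of 5 in the RFTSdel pairs (78.0% and 71.1%), and WT (47.5%) had no such member peak. The 3 wider ones at first starts were PCNA in RFTSdel replicate 1 (752 against 720 bp) and DNMT1 and USP7 in replicate 2 (857 against 755 bp, and 1060 against 729 bp). Over all 20037 genes covered length was lower in 5 of 5 pairs for 5761 (28.8%), and 3 of 6 members did this. Only a gene with a peak in all 5 DMSO libraries can do so, which 8350 genes (41.7%) and 5 of 6 members had. Covered length was lower in at least 4 of 5 pairs for 45.0% of all genes, and for 6 of 6 members. The values over all genes, here and next, include genes without a DMSO peak, which cannot fall. The median of the mean differences was −1273 bp over the members and −296.6 bp over all genes, whose median span of 24115 bp is shorter than that of any member except PCNA (11670 bp).

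Peaks away from the starts were a feature of the DMSO lists of batch 2. Of 22 such DMSO peaks in the 6 windows, 19 came from NTC and UHRF1KO and 3 from the 3 batch 1 libraries. These were also the longest lists, and the share of peaks in coding gene windows that lay over 1 kb from every listed coding start was 51.9% in NTC and 61.0% in UHRF1KO, against 44.6% in WT and 28.7% and 32.8% in RFTSdel. After DNMT1i, when 2 of the 18 member peaks lay away from the starts, this share was 47.9% in WT, 46.2% in NTC and 33.6% in UHRF1KO, and the RFTSdel replicates had 27.9% and 29.9%. NTC and WT hold the same construct but were made in different batches, so the gNTC guide and the batch cannot be told apart between them. Of the 20 sites away from the first starts, 13 were called in 1 library each.

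Among 20 partners and regulators of maintenance methylation, 16 had a peak under DMSO in WT (54.8% of all coding genes), 20 in NTC (62.5%) and 19 in UHRF1KO (67.0%), and the RFTSdel replicates had 20 (53.1%) and 19 (56.2%). With the inhibitor the numbers were 1 in WT (15.2%), 6 in NTC (22.6%) and 5 in UHRF1KO (22.9%), and the RFTSdel replicates had 14 (35.9%) and 18 (49.1%). CHAF1A, a subunit of the histone chaperone CAF-1, CSNK1D, a casein kinase, EHMT1, an H3K9 methyltransferase, and the acetyltransferase gene KAT5 were each marked in 9 libraries. EHMT1 was the 1 partner with a peak in WT DNMT1i. PCLAF, which encodes the PCNA-associated factor that UHRF1 ubiquitylates, was marked in 4 DMSO libraries and in no DNMT1i library, the same numbers as HELLS. CDCA7, which encodes the activator of HELLS, CHAF1B and the clamp loader subunit gene RFC1 were marked in 5, each with RFTSdel replicate 2 as its sole DNMT1i library. LIG1, the ligase that seals Okazaki fragments, was also marked in 9 GFP-DNMT1 libraries and was the 1 partner with a parental peak. It was picked out after its values were seen.

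Genes were also ranked by how alike their peak strength was to each member, as the mean absolute difference over 10 libraries of the within-list percentile of the strongest peak. The closest to DNMT1 were the neighbours CDC25B and CENPB (3.89 points each), to UHRF1 HACD2 (1.89) and TENT4A (4.07), and to USP7 GAB2 (4.57) and FDX1 (6.80). KYAT3 and RBMXL1, whose spans overlap, were closest to UHRF2 (9.25 each), MIDEAS (6.56) and TRAF3IP1 (6.68) to PCNA, and SFT2D1 (1.23) and ESPL1 (1.99) to HELLS. The genes named for UHRF2 and PCNA did not share all calls of their member in the 10 libraries. Those named for the other members did. The median gene differed by 19.1 points from HELLS and by 35.9 to 52.0 points from the others. The calls of UHRF1 and USP7 in the 10 libraries were the same, and 11.9% of other genes shared them. UHRF2 and PCNA shared theirs with 3.46%, DNMT1 with 6.14% and HELLS with 1.83%.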

How the data were processed

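Anti-GFP ChIP-seq peak lists of 11 libraries in MV4-11 cells were used, 1 list per library. The labels name 13 samples, and the 2 inputs were not used here. Per the labels' protocols, DSG came before formaldehyde in a dual crosslink. Per the submitters' processing notes, the tools were MACS2, BWA, cutadapt, Picard and deepTools on GRCh38. The versions, settings and control library were not given in the sources used here. Each deposited fold is a ratio of signal to background for each peak, and the deposited −log10 p and −log10 q values come from the authors' caller. Every list holds −log10 q just above 1 at its lowest.

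Groups follow the sample labels. The series' design text numbers the batches the other way round, and the sample labels were followed. Gene spans and starts came from RefSeq (GRCh38.p14), all 6 members and 20 partners matched, and the share of peaks away from listed starts leaves out chromosomes with no listed start. Exon positions were not used here. A gene was called when a peak overlapped its span plus 1 kb by at least 1 bp. Covered length was compared over 5 pairs of DMSO and DNMT1i by an exact sign-flip test, run on 20037 genes with Benjamini-Hochberg adjustment. NTC, UHRF1KO and WT gave 1 pair each and RFTSdel gave 2, paired by replicate number, so the 5 pairs come from 4 lines. No gene can pass 0.05 with 5 pairs. Code was tested on simulated peaks. Named genes are the members, genes sharing their windows, the 2 most alike per member and up to 4 partners marked most and least often. The members and lists were chosen with earlier results of these data known. Alternatives changed the window, overlap, threshold, list length, pairing and libraries. Python 3.11.15, numpy 2.4.6, pandas 2.3.3 and matplotlib 3.10.9 were used.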

Additional observations from a re-analysis of the deposited data

Results flagged for a closer look

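At USP7 the covered length under DMSO was 4058 bp in UHRF1KO, far above the other 4 DMSO libraries (652 to 1554 bp), since that list alone held 7 peaks in the window. After DNMT1i it was 1060 bp in RFTSdel replicate 2, against 285 bp in replicate 1 and 0 bp in the other 3 libraries. Both values were picked out by a gap test with a nominal rate of about 1 in 20 sets of 5 libraries. That rate need not hold for the DNMT1i set, in which 3 libraries were tied at 0 bp. In addition, 5 libraries of different lines are not replicates of one another.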

How the results depend on the processing

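With lists of equal length the UHRF2 covered length turned to 47.0 bp. At −log10 q of at least 4 it was lower after DNMT1i in 1 of 5 pairs for UHRF2 (−404.4 bp), in 2 of 5 for UHRF1 (−637.8 bp) and PCNA (−411.4 bp), and in 3 of 5 for DNMT1 (−584.8 bp) and USP7 (−310.4 bp), with exact sign-flip permutation p from 0.25 to 1.0. HELLS had no peak left at −log10 q of at least 4, at fold of at least 4 or with lists of equal length, so no value could be given. Without the pairing (no replicate block), an exact permutation test of 5 DMSO against 5 DNMT1i libraries gave p = 0.0238 for DNMT1 (−1573 bp), UHRF1 (−2709.8 bp) and USP7 (−1409.8 bp), p = 0.00794 for UHRF2 (−1136 bp), p = 0.0476 for HELLS (−836 bp) and p = 0.0952 for PCNA (−1013 bp). These p-values were not adjusted, and the paired test cannot fall below 0.0625. The unpaired test ignores the pairing and takes libraries of different lines as replicates of one another, which they are not. With the RFTSdel replicates averaged to 1 pair, the exact sign-flip permutation p was 0.125 for DNMT1, UHRF1, UHRF2, PCNA and USP7, each lower in 4 of 4 pairs. For HELLS it was 0.25, lower in 3 of 4. The number of members marked in every DMSO library was 5, and 0 at −log10 q of at least 4, 1 at fold of at least 4 and 0 with lists of equal length. The matching shares of all genes at these stricter settings were not counted. The mean change in members marked per library was −2.8, and −0.6 with lists of equal length. The values without the WT or the UHRF1KO pair were chosen after seeing the data; without the WT pair, 2 members were marked in every DNMT1i library. Leaving out either RFTSdel replicate gave −3.25 members, and covered lengths of −1799 and −1992 bp for DNMT1, −3219.8 and −3227 for UHRF1, −1221 and −981.5 for UHRF2, −1046.5 and −1154 for PCNA, −1670.5 and −1845 for USP7, and −788 and −745.5 for HELLS. Parental cells had no peak in any member window, so leaving out peaks that overlap a parental peak could hardly change these results, and it changed none. With lists of equal length the covered lengths shrank to −415.6 bp for DNMT1, −434.6 for UHRF1, −486.0 for PCNA and −310.4 for USP7. Since depth is unknown, an uncalled peak is not shown to be absent.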

Other observations

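Both palindromes read from the members were followed over 22197 listed starts of protein-coding genes. TCTCGCGAGA, from UHRF2, lay upstream of 111 starts. Under DMSO a peak lay within 1 kb of 67.6% of them in WT (44.4% of all starts), 84.7% in NTC (50.8%) and 87.4% in UHRF1KO (53.8%), and the RFTSdel replicates had 79.3% (47.0%) and 90.1% (49.1%). After DNMT1i the share was 4.50% in WT (9.27%), 9.01% in NTC (14.8%) and 29.7% in UHRF1KO (17.0%), and the RFTSdel replicates had 42.3% (30.1%) and 54.1% (41.8%). GGGCGCGCCC, from UHRF1, lay upstream of 79 starts, with 65.8% to 74.7% marked in the DMSO libraries (44.4% to 53.8% of all starts). After DNMT1i it was 15.2% in WT (9.27%), 21.5% in NTC (14.8%) and 26.6% in UHRF1KO (17.0%), and the RFTSdel replicates had 63.3% (30.1%) and 73.4% (41.8%). Both strings hold CpGs, and the starts compared were not matched for CpG number. These strings were chosen after the sequences were seen, and the shares are a description without a test.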
